A study of Mus musculus with 6 samples.

Results

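The sinusoidal endothelial markers described here are 10 genes, Stab1, Stab2, Lyve1, Clec4g, Mrc1, Fcgr2b, Pecam1, Kdr, Cdh5 and Oit3, taken by symbol from the 23291 genes of each expression table. RNA sequencing was done on snap frozen liver of C57BL/6 mice. For 3 months, mice of the dabigatran group ate a high fat (Western) diet that held 10 mg of dabigatran etexilate, an oral prodrug of a direct thrombin inhibitor, per gram. Those of the diet group ate the same food without the drug for 3 months. No group on another diet is used, so every library comes from a mouse on the high fat diet.

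The dabigatran group had 3 tables, but the tables labelled replicates 0 and 1 were equal at each of the 23291 genes and carried the replicate number 1 inside. They were counted once, as dabigatran replicate 1, which leaves 2 dabigatran libraries (replicates 1 and 2) and 3 diet libraries (replicates 0, 1 and 2). That replicates are separate animals rests on 1 word, mice, in the series description, and p-values measure the spread between these libraries. Values are FPKM, fragments scaled to gene length and library size, so levels can be compared between genes. Depth relative to diet replicate 0 was 0.857 and 0.772 in dabigatran replicates 1 and 2, and 0.761 and 0.967 in diet replicates 1 and 2. A gene was tested if at least 3 of the 5 libraries reached 1 FPKM. The 3 diet libraries alone could meet this and the 2 dabigatran libraries alone could not. Near that floor the filter therefore favours genes lower with dabigatran, in all counts by direction below. Of 10247 tested genes, 13 were higher and 31 lower with dabigatran (limma, adjusted p under 0.05). Single libraries decided that count: 294 genes passed without diet replicate 1 and 275 without dabigatran replicate 1, but 1 without diet replicate 0 and 0 without diet replicate 2 or dabigatran replicate 2, where 1107 and 1010 genes had an unadjusted p under 0.05.

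Liver sinusoids are lined by a thin, perforated endothelium without a continuous basement membrane. Its cells take up waste molecules from blood through scavenger and lectin receptors, among them the stabilins, the mannose receptor and an Fc receptor, and they share junction proteins and growth factor receptors with endothelium elsewhere. In chronic liver injury these cells can lose their pores and part of their receptors, a process called capillarization.

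Values of the clearance receptors lay on both sides of the diet level. Lyve1 and Stab1 had higher values in both dabigatran libraries than in any diet library, by 2.28-fold and 1.83-fold, while Clec4g and Fcgr2b had lower ones, at 0.591 and 0.760 of the diet level. Among the general endothelial genes, Cdh5 lay within 1.02-fold, while Pecam1 and Kdr were at 1.31-fold and 1.27-fold of the diet level. Stab2 and Mrc1 were at 1.24-fold and 1.19-fold, and the marker Oit3 lay within 1.08-fold. None of the 10 markers passed limma at an adjusted p under 0.05, where 0.429% of all tested genes did (0.127% higher and 0.303% lower with dabigatran). At an unadjusted p under 0.05 there were 3, Lyve1 and Stab1 higher and Clec4g lower, where 16.0% of all tested genes passed (6.87% higher and 9.13% lower). The log2 difference was above 0 for 8 of the 10 markers and for 51.9% of all tested genes. Fold changes here are on the log2(FPKM + 0.5) scale.

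All 10 markers were above 1 FPKM in every library, from 2.06 FPKM for Stab1 in diet replicate 1 to 53.6 FPKM for Clec4g in the same library. The label of the list therefore holds to the extent that its genes were detected, but in whole liver the cell that carried each transcript is not measured. A lower level in such samples cannot be divided into fewer cells of a type and less RNA per cell. The exons of Stab1, Stab2, Clec4g and Fcgr2b overlap a gene on the opposite strand (Nt5dc2, Gm16268, Gm16553 and Gm38204), and the use of strand is not given in the sources used here. Reads from the overlapping stretches may therefore not be separable. Of the 50-base windows of Stab1, Stab2 and Clec4g, 0.690%, 1.09% and 1.96% also occur in annotated transcripts of other genes, on either strand. Nt5dc2 had 0.766 and 0.851 FPKM in the dabigatran libraries, against 0.657, 1.73 and 2.04 FPKM in the diet libraries.

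Start sites of the stabilins and of Clec4g are shown because Stab1 and Clec4g were among the 3 markers with the lowest unadjusted p and Stab2 is the close relative of Stab1. RefSeq windows (GRCm38.p6, 250 bases before to 50 after the start) were matched for 6 of the 10 markers. Capitals mark the letters AGGAAG on either strand, 1 form of the ETS site. That site is read by a transcription factor family that includes endothelial regulators.
Stab1 (chr14:31168592-31168891, minus strand): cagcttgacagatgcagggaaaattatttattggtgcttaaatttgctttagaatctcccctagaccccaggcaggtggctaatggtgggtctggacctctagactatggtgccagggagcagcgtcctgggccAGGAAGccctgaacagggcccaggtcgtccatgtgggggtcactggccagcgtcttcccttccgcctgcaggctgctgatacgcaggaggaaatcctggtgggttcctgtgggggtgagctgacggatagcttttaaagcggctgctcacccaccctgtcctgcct
Stab2 (chr10:87007893-87008192, minus strand): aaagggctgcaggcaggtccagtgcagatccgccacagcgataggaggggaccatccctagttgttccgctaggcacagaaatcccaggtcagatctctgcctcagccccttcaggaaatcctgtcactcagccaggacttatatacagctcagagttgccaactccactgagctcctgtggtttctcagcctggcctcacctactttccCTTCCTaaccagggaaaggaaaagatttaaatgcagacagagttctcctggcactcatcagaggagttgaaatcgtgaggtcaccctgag
Clec4g (chr8:3720602-3720901, minus strand): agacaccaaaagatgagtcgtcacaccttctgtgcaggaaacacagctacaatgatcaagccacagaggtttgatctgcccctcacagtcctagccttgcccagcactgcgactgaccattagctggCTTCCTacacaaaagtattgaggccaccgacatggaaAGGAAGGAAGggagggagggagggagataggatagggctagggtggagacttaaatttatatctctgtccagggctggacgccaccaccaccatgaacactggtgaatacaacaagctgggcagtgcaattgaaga
The letters AGGAAG occurred 1 time in each stabilin window and 3 times in that of Clec4g, where 2 of the matches overlap each other. Mrc1 also held 3 and the windows of Kdr and Fcgr2b held 0, while 35.4% of all 32851 promoter windows held at least 1. The GATA core AGATAA and the MAF core TGCTGAC, searched on both strands, occurred in 0 of the 6 windows and in 11.2% and 4.67% of all windows. Such matches describe letters and not bound sites.

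Stab1 (chromosome 14, 31139013 to 31168641, GRCm38, up to 69 exons) encodes stabilin-1, a scavenger receptor of sinusoidal endothelium and of some macrophages. It had 5.79 and 7.87 FPKM in dabigatran replicates 1 and 2, against 4.66, 2.06 and 4.19 FPKM in diet replicates 0, 1 and 2. The groups did not overlap, and diet replicate 1 was the lowest library by a wide margin. The log2 difference was 0.87 ± 0.34 (SE), with an adjusted p of 0.270 by limma. Without diet replicate 1 the log2 difference was 0.56 (adjusted p = 0.301).

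Stab2 (chromosome 10, 86841198 to 87008025, up to 69 exons) encodes stabilin-2, the main receptor of sinusoidal endothelium for hyaluronan in blood. It had 8.36 and 9.85 FPKM in the dabigatran libraries, against 7.71, 6.93 and 7.10 FPKM in the diet libraries. Each dabigatran library lay above each diet library, by a gap of 0.645 FPKM between the nearest pair. The log2 difference was 0.31 ± 0.20 (SE, adjusted p = 0.50 by limma), with a 95% interval from -0.16 to 0.78. Within the same libraries the ratio of Stab1 to Stab2 was 0.693 and 0.798 with dabigatran, against 0.604, 0.298 and 0.590 on the diet alone.

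Lyve1 (chromosome 7, 110850607 to 110863239, up to 6 exons) encodes a hyaluronan receptor of sinusoidal and lymphatic endothelium that some tissue macrophages also carry. It had 18.6 and 23.2 FPKM in dabigatran replicates 1 and 2, against 10.4, 9.07 and 7.31 FPKM in diet replicates 0, 1 and 2. Both dabigatran libraries stood well above the diet libraries, with a gap of 8.24 FPKM. Lyve1 averaged 20.9 ± 3.25 FPKM in the dabigatran group and 8.92 ± 1.53 FPKM in the diet group (SD, n = 2 and n = 3). The log2 difference was 1.19 ± 0.22 (SE, adjusted p = 0.0689 by limma). With limma's voom on whole fragments the log2 difference was 1.23 and the adjusted p 0.0368, and Lyve1 was the single marker called there, of 8 with whole fragments. Over all alternatives run, its adjusted p ranged up to 0.315.

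Mrc1 (chromosome 2, 14229392 to 14332057, up to 30 exons) encodes the mannose receptor, which takes up mannose-ended glycoproteins and collagen fragments. It had 17.3 and 15.6 FPKM in the dabigatran libraries, against 11.9, 15.4 and 14.0 FPKM in the diet libraries. The nearest libraries of the groups were 0.177 FPKM apart. Its log2 difference was 0.25 ± 0.20 (SE, adjusted p = 0.569 by limma).

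Clec4g (chromosome 8, 3707064 to 3720651, up to 9 exons) encodes LSECtin, a C-type lectin named for liver sinusoidal endothelium. It was the most abundant of the 10 markers, with 37.2 and 25.4 FPKM in dabigatran replicates 1 and 2, against 50.4, 53.6 and 53.3 FPKM in diet replicates 0, 1 and 2. The diet libraries lay close together, and both dabigatran libraries lay below them. The averages were 31.3 ± 8.37 FPKM with dabigatran and 52.4 ± 1.76 FPKM on the diet alone (SD, n = 2 and n = 3). The log2 difference was -0.76 ± 0.20 (SE, adjusted p = 0.139 by limma). Dabigatran replicate 2 carried more of it than replicate 1: the log2 difference was -0.49 without replicate 2 (adjusted p = 0.513) and -1.03 without replicate 1 (adjusted p = 0.0525).

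Fcgr2b (chromosome 1, 170958617 to 170976547, up to 10 exons) encodes the inhibitory Fc receptor for IgG, through which sinusoidal endothelium clears small immune complexes and which B cells and macrophages also carry. It had 23.9 and 22.6 FPKM in the dabigatran libraries, against 28.0, 29.5 and 35.1 FPKM in the diet libraries. Both dabigatran libraries were lower than the lowest diet library, by 4.16 FPKM. Its log2 difference was -0.40 ± 0.18 (SE, adjusted p = 0.339 by limma), with a 95% interval from -0.82 to 0.03. Of its 50-base windows, 6.95% also occur in other genes, mostly Fcgr3, so its value is uncertain to that extent. Fcgr3 itself had 10.5 and 6.70 FPKM with dabigatran, against 7.24, 8.15 and 9.63 FPKM on the diet alone.

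Pecam1, Kdr and Cdh5 mark endothelium in general. Pecam1 (chromosome 11, 106654217 to 106750628) encodes the adhesion molecule CD31, which leukocytes and platelets also carry, and its level was 8.76 and 11.9 FPKM with dabigatran, against 8.37, 6.99 and 7.64 FPKM on the diet alone. Kdr (chromosome 5, 75932827 to 75978458), the main signalling receptor for VEGF, had 11.0 and 11.3 FPKM with dabigatran, against 9.25, 9.29 and 7.62 FPKM on the diet alone. Both genes had slightly higher values with dabigatran, with log2 differences of 0.39 ± 0.22 for Pecam1 and 0.34 ± 0.20 for Kdr (SE, adjusted p = 0.422 and 0.448 by limma). Cdh5 (chromosome 8, 104101625 to 104144511), the cadherin of endothelial junctions, had 7.31 and 7.30 FPKM with dabigatran, against 6.89, 7.27 and 7.23 FPKM on the diet alone. Its log2 difference of 0.03 had a 95% interval from -0.42 to 0.49, that is from 0.745-fold to 1.40-fold, which leaves room for a moderate difference in either direction.

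Oit3 (chromosome 10, 59422958 to 59441778, up to 9 exons), used as a marker of sinusoidal endothelium in mouse liver, behaved like Cdh5. It had 9.54 and 9.37 FPKM in the dabigatran libraries, against 8.49, 9.30 and 8.46 FPKM in the diet libraries. Between the groups the log2 difference was 0.11, with a 95% interval from -0.34 to 0.55 (adjusted p = 0.826 by limma).

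**Figure D1:**
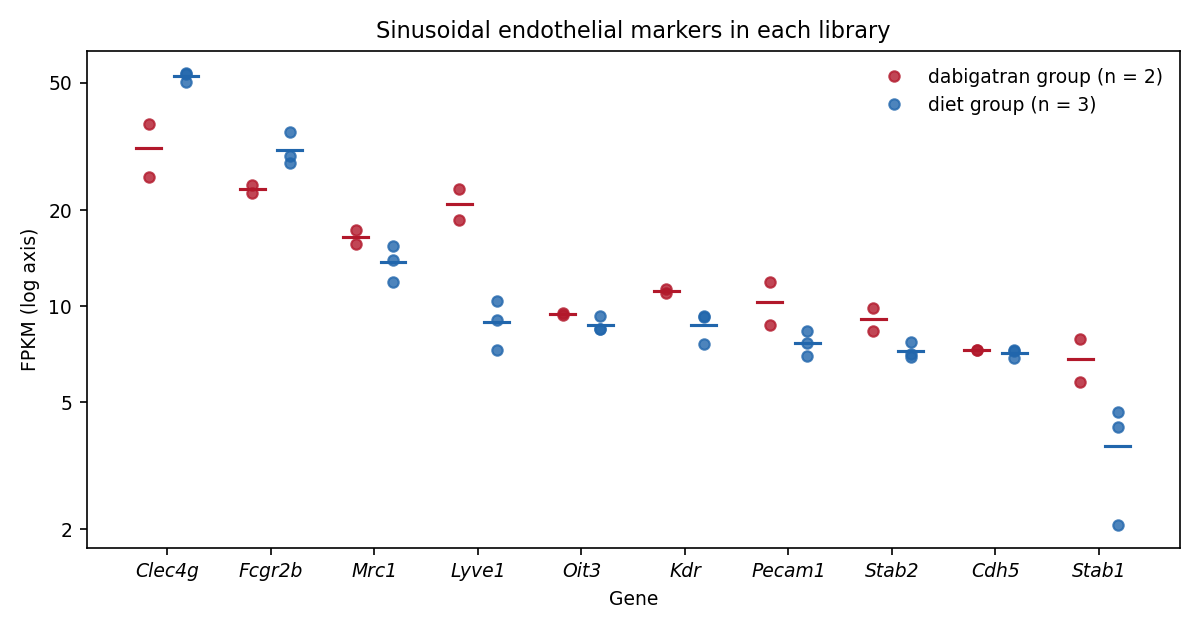
FPKM on a log axis for each marker, ordered by the diet mean, with 1 point per library, the 2 dabigatran libraries left of the 3 diet libraries and a bar at each mean. Lyve1 lies between 18.6 and 23.2 FPKM with dabigatran and between 7.31 and 10.4 FPKM on the diet alone, while Clec4g lies between 25.4 and 37.2 FPKM with dabigatran and between 50.4 and 53.6 FPKM on the diet alone.

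Clec4g and Fcgr2b had the highest mean level and Cdh5 and Stab1 the lowest in both groups. With dabigatran the order of means was Clec4g, Fcgr2b, Lyve1, Mrc1, Kdr, Pecam1, Oit3, Stab2, Cdh5 and Stab1, of which Fcgr2b and Lyve1, the run from Kdr to Stab2, and Cdh5 and Stab1 had neighbours with overlapping libraries. On the diet alone the order was Clec4g, Fcgr2b, Mrc1, Lyve1, Oit3, Kdr, Pecam1, Stab2, Cdh5 and Stab1. There the run from Lyve1 to Cdh5, between 8.92 and 7.13 FPKM on average, had overlapping neighbours throughout. The summed FPKM of the 10 markers was 148 and 144 in the dabigatran libraries, against 146, 149 and 152 in the diet libraries. Clec4g held 25.2% and 17.6% of that sum with dabigatran, against 34.5%, 35.9% and 35.1% on the diet alone. Without Clec4g and Fcgr2b the sum was 86.6 and 96.3 FPKM with dabigatran, against 67.6, 66.3 and 63.5 FPKM on the diet alone.

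As deposited, the groups did not overlap for any of the 10 markers, 8 of which were higher and 2 lower in both dabigatran libraries. Among all tested genes 34.4% did not overlap, 17.2% in each direction. For 3 markers the separation was slight: 0.0300 FPKM for Cdh5, 0.0691 FPKM for Oit3 and 0.177 FPKM for Mrc1. It also depended on scaling. With each library set to the same median, Mrc1, Cdh5 and Oit3 overlapped (7 of 10 separate), with quantile normalization Cdh5 and Oit3 (8 of 10), and with the same summed FPKM Mrc1, Pecam1, Cdh5 and Oit3 (6 of 10). The median log2 difference was 0.28 over the 10 markers and 0.02 over all tested genes, and without dabigatran replicate 2 that of the markers was 0.19.

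**Figure D2:**
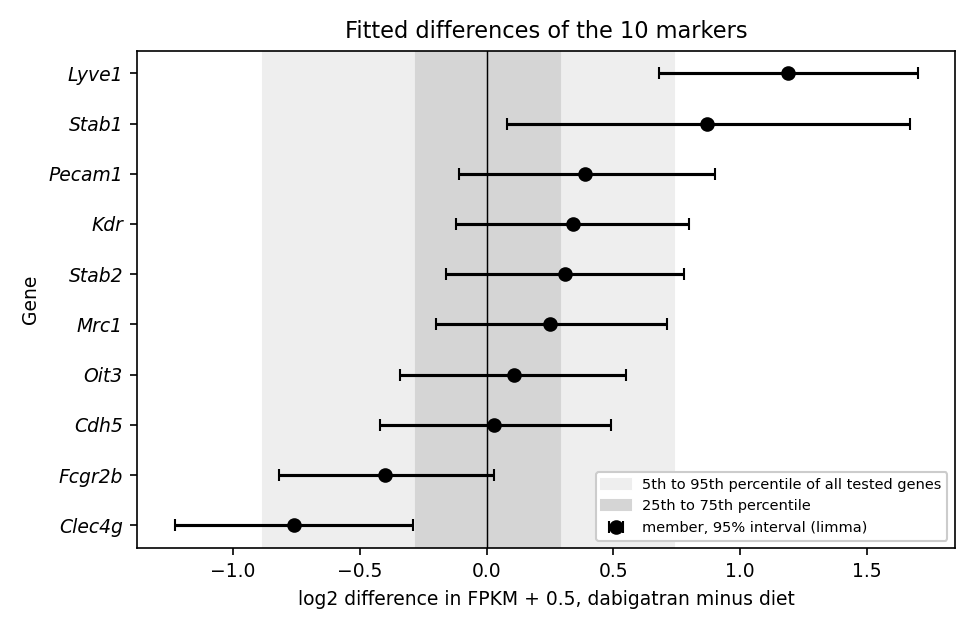
Log2 difference in FPKM + 0.5, dabigatran minus diet, for each marker with its 95% interval from limma, over grey bands for the middle of all tested genes. Lyve1 (1.19) and Stab1 (0.87) lie above the 95th percentile of all tested genes (0.74), Clec4g (-0.76) lies above the 5th percentile (-0.88), and 7 of the 10 intervals include 0.

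The depth behind these values was modest. The steps between low values gave whole fragments for 8 of the markers, from 31 for Stab1 in diet replicate 1 to 192 for Mrc1 in dabigatran replicate 1. Values of Fcgr2b and Pecam1 did not resolve into a plausible whole number. Lyve1 rested on 97 and 109 fragments in the dabigatran libraries, against 63, 42 and 43 in the diet libraries. Its pooled ratio was 2.33 (95% counting interval 1.88 to 2.90), and that of Clec4g, with 83 and 51 fragments against 131, 106 and 134, was 0.605 (0.493 to 0.739). The pooled ratios of Stab1, Kdr, Stab2 and Mrc1 were 1.80 (1.48 to 2.19), 1.28 (1.08 to 1.52), 1.25 (1.07 to 1.45) and 1.21 (1.05 to 1.39). Those of Oit3 and Cdh5 were 1.09 (0.834 to 1.41) and 1.03 (0.806 to 1.30), so no difference was detectable at this depth for these 2 genes. Counting intervals cover the sampling of fragments only, not the spread between mice.

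**Figure D3:**
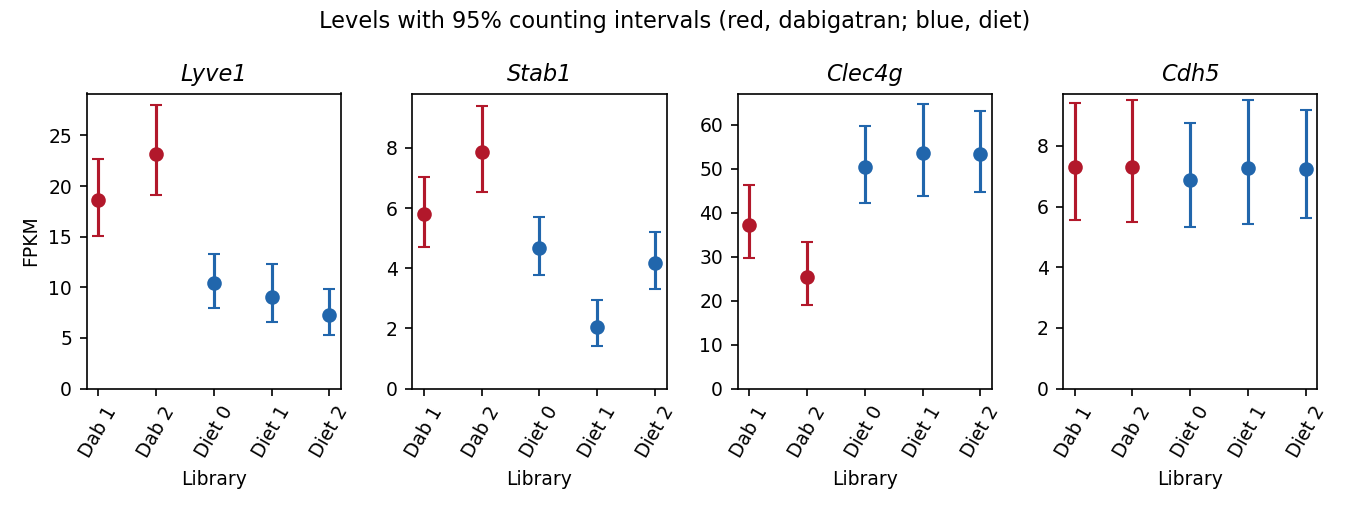
FPKM per library with exact Poisson 95% intervals for Lyve1, Stab1, Clec4g and Cdh5, the 2 dabigatran libraries left of the 3 diet libraries in each panel and every axis starting at 0. The intervals of Lyve1 in the dabigatran libraries start at 15.1 and 19.1 FPKM, above the highest diet interval, which ends at 13.3 FPKM, while those of Cdh5 overlap in all 5 libraries.

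Ratios within a library do not depend on how libraries were scaled. Pecam1, Kdr and Cdh5 were combined as a geometric mean, which was 8.89 and 9.93 FPKM with dabigatran, against 8.11, 7.78 and 7.50 FPKM on the diet alone. This mean was itself higher in both dabigatran libraries, which lowers every ratio to it there. The wider list of general endothelial genes described below had a median log2 difference of -0.05 over 18 tested genes. Relative to the geometric mean, Lyve1 was 2.09 and 2.34 with dabigatran, against 1.28, 1.17 and 0.976 on the diet alone. Clec4g was 4.19 and 2.56 with dabigatran, against 6.21, 6.88 and 7.11 on the diet alone, and Fcgr2b 2.68 and 2.28 with dabigatran, against 3.46, 3.79 and 4.69 on the diet alone. These 3 ratios and that of Stab1 separated the groups, while those of Stab2, Mrc1 and Oit3 overlapped.

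The ratio of Lyve1 to Clec4g was 0.50 and 0.914 in dabigatran replicates 1 and 2, against 0.206, 0.169 and 0.137 in diet replicates 0, 1 and 2. A two-sided exact permutation test of its logarithm gave p = 0.200, the smallest that 2 and 3 libraries allow. This pair was chosen after the values were seen. Lyve1 was already higher and Clec4g lower in both dabigatran libraries, so the ratio had to separate the groups. The test could give no other p and adds nothing to the values.

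**Figure D4:**
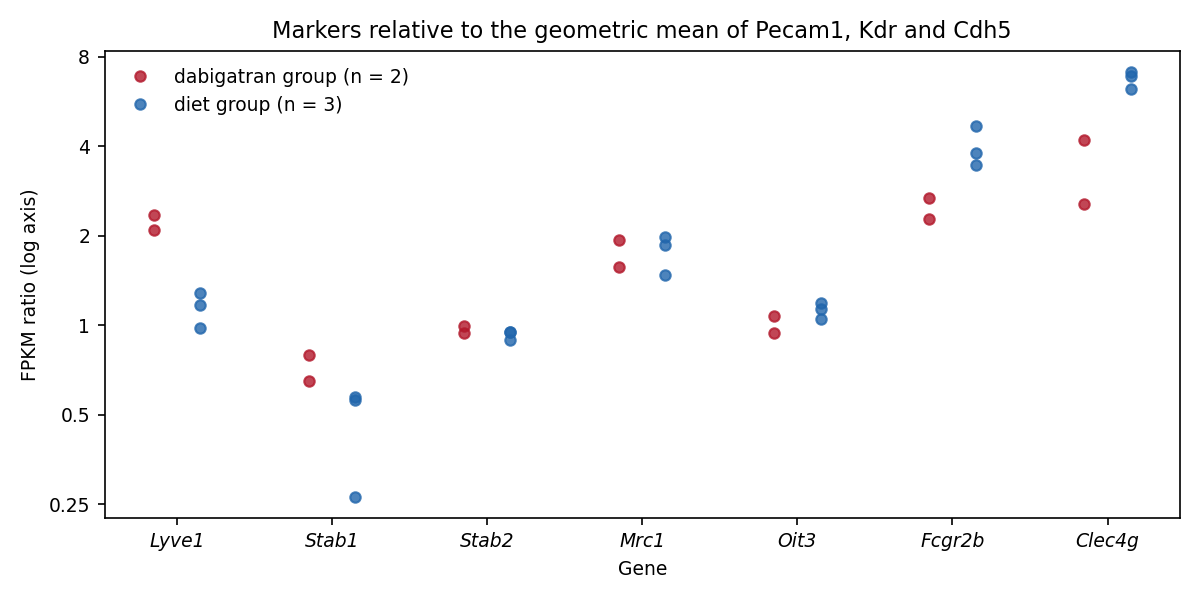
FPKM of 7 markers divided by the geometric mean of Pecam1, Kdr and Cdh5 in the same library, on a log axis, with the 2 dabigatran libraries left of the 3 diet libraries. Lyve1 and Stab1 are higher and Fcgr2b and Clec4g lower with dabigatran, and Stab2, Mrc1 and Oit3 overlap between the groups.

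Across the 5 libraries the markers varied in a few shapes. Likeness was measured as the root mean square difference of log2 values, each gene centred on its own mean. Cdh5 and Oit3 (0.05), Stab2 and Pecam1 (0.08) and Stab2 and Kdr (0.11) were the nearest pairs, and Lyve1 and Clec4g (1.01) and Stab1 and Clec4g (0.93) the farthest. Clec4g was nearest to Fcgr2b (0.25). Stab2 lay closest to the mean profile of the markers (0.07). Outside the list, the genes nearest to that mean profile included Sgms1 (0.017), Kdm4c (0.021), Zc3h7b (0.028) and Atf6 (0.028), and with only 5 libraries many genes share such a shape.

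Other genes of sinusoidal endothelium had no common direction. Of 19, 18 were tested and 0 passed in either direction, with 9 higher and a median log2 difference of 0.02, the same as that of all tested genes. Here and in the lists below, calls stand beside 0.429% of all tested genes, so 0 in a short list does not set it apart. In both dabigatran libraries 2 of the 18 were higher and 3 lower, where 17.2% of all tested genes did not overlap in each direction. The orphan receptor gene Gpr182 had 7.44 and 7.91 FPKM with dabigatran, against 6.64, 8.03 and 5.49 FPKM on the diet alone. The nuclease gene Dnase1l3 had 15 and 11.8 FPKM with dabigatran, against 18.9, 15.7 and 18.6 FPKM on the diet alone (adjusted p = 0.386 by limma). The coagulation factor VIII gene F8, which liver endothelium makes, had 4.81 and 3.67 FPKM with dabigatran, against 5.85, 6.88 and 4.84 FPKM on the diet alone (adjusted p = 0.450).

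Regulators and signals of these cells were equally mixed. Gata4, a transcription factor needed for sinusoidal identity in mice, had 2.89 and 5.93 FPKM with dabigatran, against 4.71, 2.44 and 5.0 FPKM on the diet alone. Maf had 6.97 and 4.76 FPKM with dabigatran, against 7.70, 8.75 and 7.25 FPKM on the diet alone (adjusted p = 0.427 by limma). Bmp2, an endothelial signal that drives hepcidin in hepatocytes, had 7.78 and 8.19 FPKM with dabigatran, against 5.47, 4.94 and 3.89 FPKM on the diet alone, without overlap (log2 difference 0.70 ± 0.23, adjusted p = 0.208). Aass had 248 and 496 FPKM with dabigatran, against 106, 153 and 103 FPKM on the diet alone (adjusted p = 0.0751), but this lysine breakdown enzyme is also made by hepatocytes.

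In the VEGF and angiopoietin system, to which Kdr belongs, 9 of 13 genes were tested and 0 passed. The ligand gene Vegfa had 35.4 and 30.6 FPKM with dabigatran, against 25.2, 30.8 and 29.4 FPKM on the diet alone. The receptor gene Flt1 had 1.21 and 3.28 FPKM with dabigatran, against 0.909, 1.11 and 1.68 FPKM on the diet alone. The co-receptor gene Nrp2 had 5.15 and 3.4 FPKM with dabigatran, against 2.27, 2.54 and 2.95 FPKM on the diet alone (adjusted p = 0.331 by limma). It was the single gene of this list whose groups did not overlap, where 34.4% of all tested genes did not. Tek and Tie1, the angiopoietin receptor and its partner, had log2 differences of -0.11 and -0.07. Pgf was listed at 0 in every library.

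Among 21 general endothelial genes, 18 were tested and 0 passed, with a median log2 difference of -0.05. The log2 difference was above 0 for 7 of the 18. In both dabigatran libraries 0 of the 18 were higher and 3 lower (Emcn, Sox18 and Calcrl), where 17.2% of all tested genes did not overlap in each direction. Robo4, a guidance receptor of endothelium, had the lowest p, with groups that overlapped (log2 difference 0.56 ± 0.31 SE, adjusted p = 0.414 by limma). The receptor partner gene Ramp2 had 2.78 and 3.85 FPKM with dabigatran, against 2.98, 10.2 and 7.39 FPKM on the diet alone.

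Genes of capillary and continuous endothelium differed widely in level. Of 12, 6 were tested, 1 passed and was lower with dabigatran, and Apln and Aplnr were listed at 0 in every library. Plvap was well detected, from 9.61 FPKM in dabigatran replicate 2 to 16.7 FPKM in diet replicate 2, and its groups overlapped. The gene that passed was Ly6c1, a surface protein of capillary endothelium and of monocytes. Its value was 0 in dabigatran replicates 1 and 2, against 1.91, 3.25 and 2.55 FPKM on the diet alone (adjusted p = 0.0404 by limma). The filter asks for 1 FPKM in 3 libraries, so the 3 diet libraries alone admitted Ly6c1 to the test. A gene seen only in the 2 dabigatran libraries could not be admitted. The call was lost with a pseudocount of 0.1, no filter, quantile normalization, no variance trend or a replicate block, and when any 1 of dabigatran replicate 2, diet replicate 0 and diet replicate 2 was left out. Of its sequence, 32.8% of the 50-base windows also occur in other genes, mostly Ly6c2. Its close relative Ly6a had 7.44 and 0.826 FPKM with dabigatran, against 21.1, 16.8 and 13.9 FPKM on the diet alone (adjusted p = 0.131), and rested on 10 and 1 fragments with dabigatran, against 33, 20 and 21 on the diet alone. Cd34 and Vwf, whose gain accompanies capillarization, were at or below 1.30 FPKM in every library. Cd34 had 0.816 and 0.453 FPKM with dabigatran, against 0.524, 0.459 and 0.542 FPKM on the diet alone. Vwf had 0.746 and 1.30 FPKM with dabigatran, against 0.548, 0.360 and 0.662 FPKM on the diet alone, higher in both dabigatran libraries than in any diet library. Esm1, an endothelial proteoglycan gene, was also higher in both, with 1.94 and 1.08 FPKM with dabigatran, against 0.416, 0.821 and 0.646 FPKM on the diet alone. Lama4 was lower in both, with 0.709 and 0.350 FPKM with dabigatran, against 1.55, 0.799 and 0.978 FPKM on the diet alone. The filter on low values left Cd34, Vwf, Esm1 and Lama4 untested. Of the 6 tested genes, 0 were higher and 2 lower in both dabigatran libraries. Among all tested genes 17.2% did not overlap in each direction.

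Vessel zone genes showed no call among the 7 tested of 10. Rspo3, a Wnt amplifier of central vein endothelium, had 2.10 and 1.40 FPKM with dabigatran, against 3.79, 4.50 and 3.36 FPKM on the diet alone (log2 difference -0.97 ± 0.28, adjusted p = 0.161 by limma). Wnt2 had 1.69 and 1.61 FPKM with dabigatran, against 3.52, 0.544 and 3.21 FPKM on the diet alone. The thrombomodulin gene Thbd had 1.18 and 4.22 FPKM with dabigatran, against 0.674, 1.03 and 0.814 FPKM on the diet alone (adjusted p = 0.309).

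Other scavenger and endocytosis genes, all 13 of which were tested, had 0 calls and a median log2 difference of -0.14. Colec12, a scavenger receptor of vascular cells, had 12.3 and 11.0 FPKM with dabigatran, against 20.4, 15.8 and 24.4 FPKM on the diet alone (adjusted p = 0.173 by limma). Ctsl, a lysosomal protease that many liver cells make, had 377 and 629 FPKM with dabigatran, against 199, 275 and 210 FPKM on the diet alone (adjusted p = 0.101). Cd36, a fatty acid and scavenger receptor that hepatocytes also make, had the lowest p, with 30.2 and 17.8 FPKM with dabigatran, against 124, 46.5 and 116 FPKM on the diet alone (adjusted p = 0.0941).

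**Figure D5:**
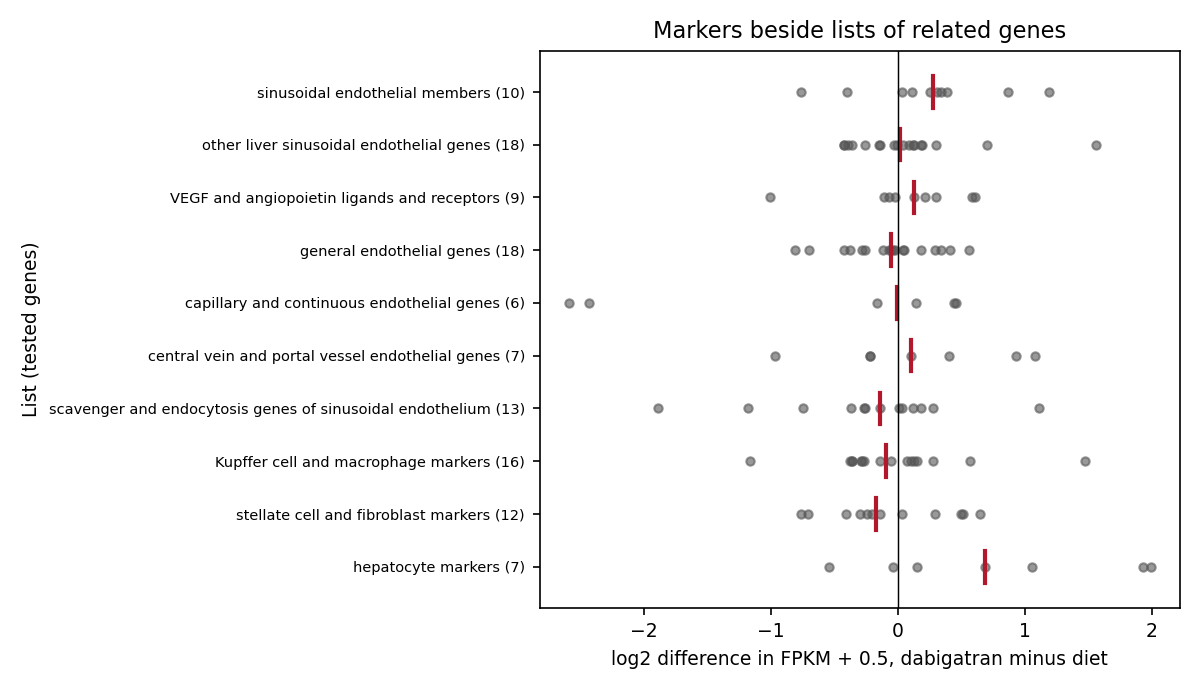
Log2 difference in FPKM + 0.5, dabigatran minus diet, for every tested gene of the markers and of each related list with at least 5 tested genes (grey points) and the median of each list (red bar), with the number of tested genes in parentheses. The median is 0.28 for the markers, 0.02 for other sinusoidal endothelial genes and -0.05 for general endothelial genes, and the lowest point is Ly6c1, which was listed at 0 with dabigatran.

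Several of the markers are also made by other cells, whose own markers were read beside them. Of 16 Kupffer cell and macrophage markers, all were tested and 0 passed, and their summed level was 393 to 546 FPKM with dabigatran and 400 to 532 FPKM on the diet alone, with none listed at 0 in all libraries. Clec4f, which defines Kupffer cells, had 60.3 and 57.8 FPKM with dabigatran, against 55.4, 60.1 and 68.0 FPKM on the diet alone. Cd163, a scavenger receptor of macrophages, was the single marker of this list higher in both dabigatran libraries, with 11.9 and 13.2 FPKM, against 3.38, 6.11 and 3.52 FPKM on the diet alone (adjusted p = 0.0714 by limma). Fcgr1, an activating Fc receptor of macrophages, was the single one lower in both, with 0.773 and 0.858 FPKM with dabigatran, against 2.82, 1.52 and 3.26 FPKM on the diet alone (adjusted p = 0.184). The median log2 difference of the 16 was -0.09, and 17.2% of all tested genes did not overlap in each direction. The part of macrophages in the values of Lyve1, Stab1, Mrc1 and Fcgr2b was not tested.

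Lymphatic vessels also carry Lyve1. Their markers Pdpn and Ccl21a were listed at 0 in every library, and Flt4 had 3.10 and 7.16 FPKM with dabigatran, against 4.90, 3.22 and 3.33 FPKM on the diet alone. Prox1, shared by lymphatic endothelium and hepatocytes, had 27.0 and 45.0 FPKM with dabigatran, against 16.2, 14.5 and 12 FPKM on the diet alone (adjusted p = 0.0751 by limma). The summed level of the 4 lymphatic markers, 30.1 to 52.1 FPKM with dabigatran and 15.4 to 21.1 FPKM on the diet alone, followed Prox1. The part of lymphatic endothelium in the values of Lyve1 was not tested beyond this.

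Among 14 B cell, T cell and other leukocyte markers, 3 were tested and 0 passed, with sums of 5.38 to 50.6 FPKM with dabigatran and 12.4 to 28.6 FPKM on the diet alone. The B cell gene Cd79a had 1.23 and 0.457 FPKM with dabigatran, against 1.76, 0.927 and 0.365 FPKM on the diet alone. The part of B cells in the values of Fcgr2b was not tested. Ptprc, carried by all leukocytes, had 4.54 and 2.63 FPKM with dabigatran, against 3.73, 5.11 and 5.34 FPKM on the diet alone. Stellate cell and fibroblast markers (12 of 13 tested, 0 passed) summed to 166 to 200 FPKM with dabigatran and 159 to 224 FPKM on the diet alone. Biliary epithelial markers (2 of 6 tested, 0 passed) summed to 11.1 to 39.0 FPKM with dabigatran and 32.8 to 52.0 FPKM on the diet alone. This sum followed Spp1, the lowest by p, which had 35.3 and 9.54 FPKM with dabigatran, against 49.4, 31.2 and 39.0 FPKM on the diet alone (adjusted p = 0.323 by limma). Krt19, Krt7, Epcam and Cftr were below 1 FPKM in every library. Platelet and red cell markers (2 of 9 tested, 0 passed) summed to 66.4 to 90.1 FPKM with dabigatran and 76.8 to 142 FPKM on the diet alone. Hepatocyte markers (7 tested, 0 passed) had a median log2 difference of 0.69, with 4 of them higher and 1 lower in both dabigatran libraries, where 17.2% of all tested genes did not overlap in each direction. Cps1, a urea cycle enzyme, had the lowest p of this list, with 826 and 1793 FPKM with dabigatran, against 248, 469 and 282 FPKM on the diet alone (adjusted p = 0.0738 by limma). Because FPKM is a share of the library, a shift in abundant hepatocyte transcripts enters every marker's level, and its part was not tested beyond the scalings given above.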

How the data were processed

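Library preparation from total RNA of snap frozen liver used a TruSeq RNA kit, per the labels. The authors deposited FPKM for 23291 genes in each library. The submitters' processing notes list CASAVA, TopHat, TopHat2 (2.0.4), Cuffdiff and R (2.15.1) without roles, and the builds mm10 and GRCm38. How libraries were scaled, which annotation was used and how reads that match several genes were treated is not stated there. The identical tables of dabigatran replicates 0 and 1 were counted once.

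A gene was tested if 3 or more of the 5 libraries reached 1 FPKM (10247 genes, all 10 markers among them). Values were log2(FPKM + 0.5). limma 3.58.1 in R 4.3.3 (lmFit, eBayes with a variance trend) set dabigatran against diet, two-sided, with Benjamini-Hochberg adjustment over all tested genes and a threshold of 0.05. These steps were tested on simulated data. Whole fragments were recovered from the relative depth of the libraries, read from values under 0.3 FPKM. They were accepted within a relative tolerance of 2e-05 and where the implied length was at most 1.5 times the annotated one. This gave whole fragments for 7136 genes (69.6%), with 590238 to 755559 fragments per library over these genes. Genes without whole fragments, among them the abundant Alb and Apoa1, are not in these sums, which are therefore not library sizes. Gene positions come from GENCODE M21 (GRCm38).

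All 10 markers are described whatever their p. In the related lists, genes were named by a set of symbols and by lowest unadjusted p. Wnt2, Esm1, Lama4, Cd79a, Marco, F8 and the genes of the closing paragraph were also read after their values were seen. The markers and all lists were chosen with earlier results of these data known. Alternatives were other pseudocounts, filters and normalizations, no variance trend, a replicate block, voom on whole fragments and leaving out each library. One gene that the naming rule picked is not reported here.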

Additional observations from a re-analysis of the deposited data

How the results depend on the processing

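Directions of all 10 markers held under every alternative in which they were tested, and 1 call changed: Lyve1 passed with voom on whole fragments (log2 difference 1.23, adjusted p = 0.0368), the single setting with 1 marker called in place of 0. The count of genes called over all tested genes was 44, against 23 with a pseudocount of 0.1, 27 after quantile normalization, 13 with a replicate block, 95 with voom on whole fragments (7136 genes) and 0 both without a filter on low values and without a variance trend. At an unadjusted p under 0.05 these last fits had 1933 and 1562 genes. Leaving out 1 library gave 0 to 294. Calls among the related lists, 1 in the fit reported, were 3 with voom, 0 to 7 without single libraries, and 0 with a pseudocount of 0.1, without a filter, with at least 5 FPKM, after quantile normalization, without a variance trend, with a replicate block or in the fit on genes with whole fragments, the last and that at 5 FPKM without testing Ly6c1. The median log2 difference of the markers was 0.19 to 0.31 without single libraries. Setting libraries to the same summed FPKM left 6 of 10 markers without overlap. This scaling, the other scalings of that count and the limma fit on genes with whole fragments only were added after the data were seen. Deviations of same-numbered libraries of the groups had correlations of -0.04 and -0.03 for numbers 1 and 2. The 2 dabigatran libraries deviate from their mean by equal and opposite amounts, so both values use the same dabigatran contrast. They cannot tell whether libraries joined by the replicate block share more than a number. With 31 to 192 fragments per marker and library, small differences lie within counting error. Fits without 1 dabigatran library assume that the other varies like the diet libraries.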

Other observations

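Values of some leukocyte genes lay far apart within groups. The neutrophil genes S100a9 and S100a8 had 28.1 and 12.6 FPKM in dabigatran replicate 1, while in replicate 2 S100a9 had 1.84 FPKM and S100a8 was listed at 0. In diet replicates 0, 1 and 2, S100a9 had 1.42, 1.86 and 14.7 FPKM. The macrophage receptor gene Marco had 15.5 and 2.88 FPKM in dabigatran replicates 1 and 2, against 2.44, 4.08 and 8.50 FPKM in the diet libraries. Among the 12 tested stellate cell and fibroblast markers, 3 were higher and 3 lower in both dabigatran libraries, with a median log2 difference of -0.17, where 17.2% of all tested genes did not overlap in each direction. Rgs5, a gene of mural and stellate cells, had 15.8 and 17.6 FPKM with dabigatran, against 10.6, 12.3 and 8.67 FPKM on the diet alone (log2 difference 0.65 ± 0.21 SE, adjusted p = 0.208 by limma, higher in 2 of 2 dabigatran libraries). Lum, a proteoglycan gene of fibroblasts, had 1.48 and 3.28 FPKM with dabigatran, against 3.59, 4.72 and 4.15 FPKM on the diet alone (log2 difference -0.76 ± 0.33 SE, adjusted p = 0.309, lower in 2 of 2 dabigatran libraries). The 2 tested red cell genes had log2 differences of opposite sign. Alas2, the heme synthesis enzyme of red cell precursors, had 22.1 and 32.9 FPKM with dabigatran, against 59.6, 40.4 and 53.7 FPKM on the diet alone (log2 difference -0.90 ± 0.24 SE, adjusted p = 0.144), lower in 2 of 2 dabigatran libraries. Hba-a1, a globin gene with a near-identical copy, had 42.1 and 57.0 FPKM with dabigatran, against 51.9, 26.7 and 37.3 FPKM on the diet alone (log2 difference 0.39 ± 0.29 SE, adjusted p = 0.544).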
